A study of Mus musculus with 3 samples.

Results

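The constitutive proteasome genes of the mouse were taken as every gene whose symbol starts with Psma to Psmg and a digit, has at least 1 transcript annotated as protein_coding, and is not Psmb8, Psmb9 or Psmb10, which encode the catalytic subunits of the interferon-induced immunoproteasome. The rule gave 47 genes of the 55450 genes with a symbol in the deposited gene tables. By role they were 16 subunits of the core particle (14 widely expressed, 7 alpha and 7 beta, and the tissue-restricted Psma8 and Psmb11), 17 of the regulatory particle (9 of its base and 8 of its lid), 7 assembly chaperones, 5 activators and 1 inhibitor. The remaining gene, Psmc3ip, matched by its name alone: it encodes a cofactor of meiotic recombination and not a proteasome subunit. Adrm1, Sem1 and Pomp, which encode proteasome components or an assembly factor under other names, were not matched by the rule and are described as context.

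The proteasome is the main ATP-dependent protease of the cytosol and nucleus and degrades proteins tagged with ubiquitin. Its barrel-shaped core particle is a stack of alpha and beta rings, and the protease sites face inward on the beta subunits encoded by Psmb5 (chymotrypsin-like), Psmb6 (caspase-like) and Psmb7 (trypsin-like). The regulatory particle sits on the end of the barrel: its base holds a ring of ATPases that unfolds substrates, and its lid removes the ubiquitin. In macrophages the proteasome also degrades the inhibitors of NF-kB after Toll-like receptor signalling and makes peptides for class I antigen presentation.

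RNA was measured by ribosomal-RNA-depleted total RNA sequencing in 3 libraries of 1 condition, the cytosolic fraction of bone-marrow-derived macrophages of the strain C57BL/6J, which had been stimulated for 20 min with 100 ng/ml Lipid A, the Toll-like receptor 4 ligand of bacterial lipopolysaccharide. The labels name them biological replicates 1, 2 and 3 but carry the same donor identifier, so the SDs below measure the spread between these samples, which may be technical. No unstimulated, later or nuclear samples were analysed here, so nothing below is a response to Lipid A, and the cells had been grown in culture. The labels list the age and sex of the mice as not collected.

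The libraries held 27392626, 81597761 and 37176950 estimated counts. Levels are the deposited TPM, the share of a transcript among all transcripts of the library after division by its length. Nuclear-encoded coding genes took 25.0%, 22.0% and 19.7% of the TPM in replicates 1, 2 and 3. Coding genes of the mitochondrial genome were left out of this share. A nuclear-encoded gene at the same share of these coding messages thus had a lower deposited TPM in replicate 3. For values between libraries the TPM were therefore also scaled so that the 21888 nuclear-encoded coding genes alone summed to the same total as all rows of a deposited table, called rescaled TPM. All 6 macrophage markers (Lyz2, Csf1r, Adgre1, Cd68, Mertk, Fcgr1) stood at mean levels of 29.02 TPM or more, and all 8 markers of other cell types (Cd3e, Cd79a, Ly6g, Hba-a1, Col1a1, Cdh5, Siglech, Mcpt8) at 0.20 TPM or less. The nuclear RNA Malat1 was at 1438, 1127 and 3883 rescaled TPM, highest in replicate 3.

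Nearly the whole gene group was present. In the 3 libraries 44 of the 47 genes reached 1 TPM or more in each, beside 40.7% of the 21888 coding genes. The median of the 47 gene means was 17.9 TPM, and that of the 9160 coding genes whose mean was 1 TPM or more was 6.66 TPM. The 47 genes together took 0.466%, 0.471% and 0.456% of the rescaled TPM. The 3 exceptions were the thymus-specific catalytic subunit Psmb11, the testis-specific alpha subunit Psma8 and the name match Psmc3ip.

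**Figure D1:**
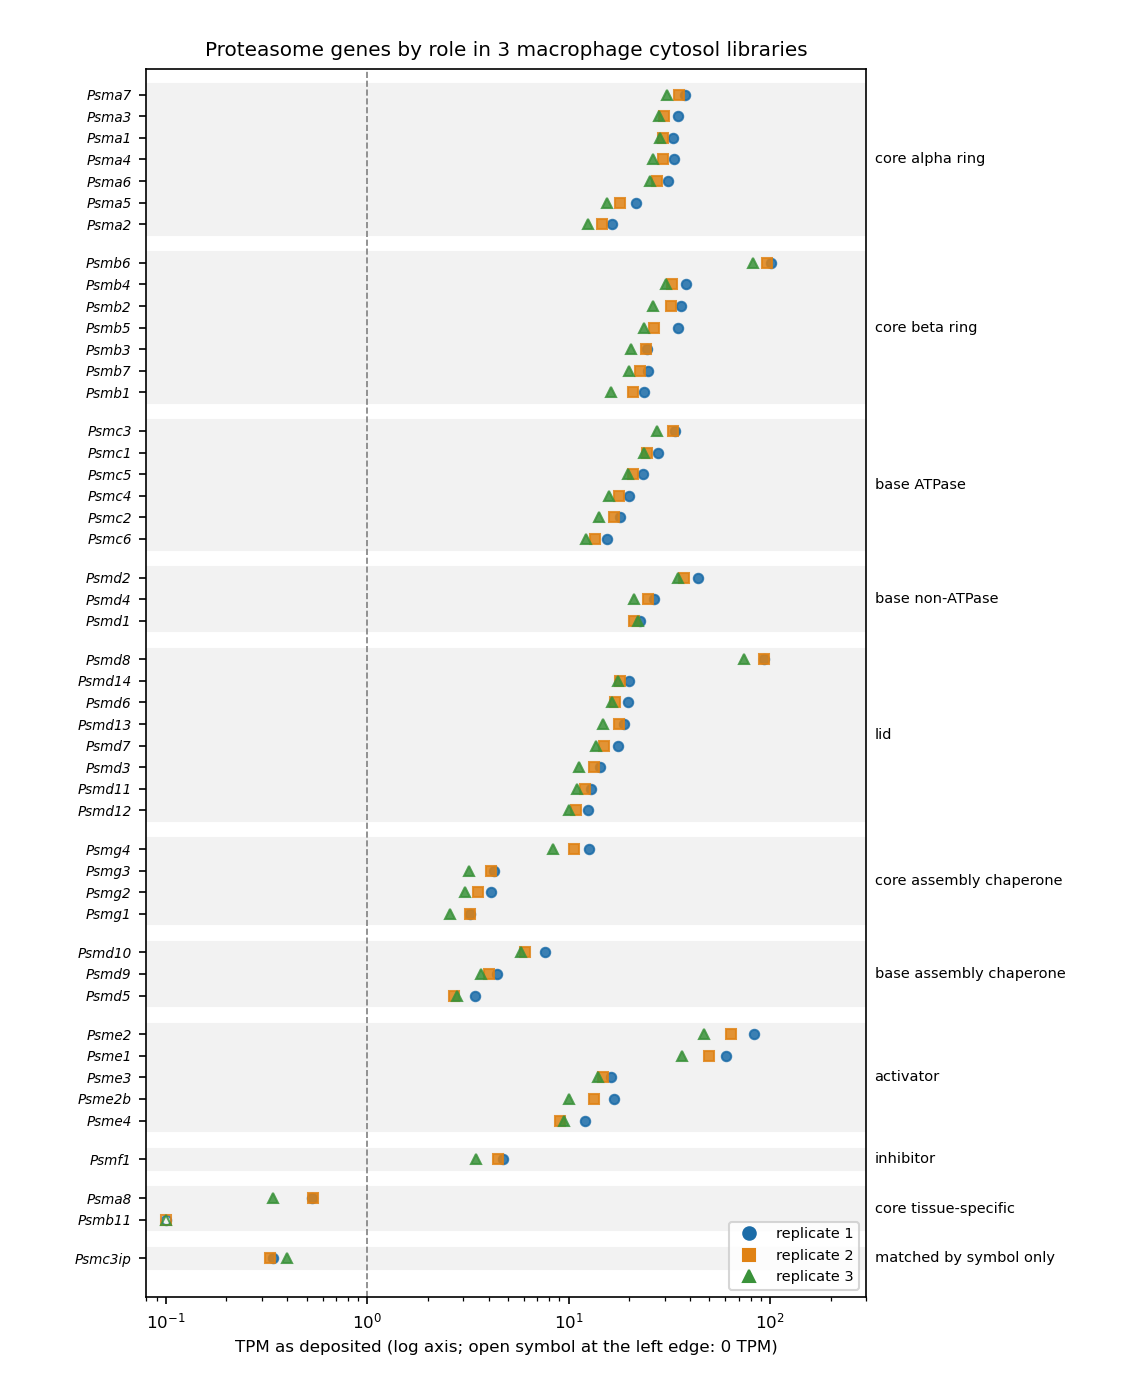
TPM as deposited (log axis) of the 47 genes in each of the 3 libraries (1 symbol per library), grouped by role and ordered by mean within a role; the dashed line is 1 TPM. Psmb6 and Psmd8 stand alone at the right of the core and the lid, at means of 93.2 and 86.6 TPM, the assembly chaperones lie between 2.98 and 10.5 TPM, and Psmb11 is drawn at the left edge because it had 0 TPM.

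The 3 constitutive protease subunits were not at equal levels. Psmb6 (chr11:70525367-70527858, plus strand, in the mm10 build with the GENCODE M21 annotation) was at 101, 95.95 and 82.6 TPM, a mean of 93.2 ± 9.47 (SD, n = 3). Psmb5 (chr14:54614119-54618022, minus strand) was at 34.9, 26.6 and 23.7 TPM. Psmb7 (chr2:38588036-38644087, minus strand) was at 24.9, 22.5 and 20.01 TPM. In each library Psmb6 was the highest of the 47 genes and its range did not overlap with those of Psmb5 and Psmb7, which overlapped with each other, although Psmb5 was above Psmb7 in each library. Within a library Psmb6 was 4.15 ± 0.11 times Psmb7 and 3.33 ± 0.38 times Psmb5 (SD, n = 3). A second deposited transcript table, made directly from the reads and summed to genes, gave 4.13 ± 0.07 and 3.37 ± 0.33. The annotated pseudogenes Psmb6-ps and Psmb6-ps2 had 0 counts in the 3 libraries.

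The other beta subunits, which carry no protease site, were closer together. Psmb4 was the second highest at 38.4, 32.7 and 30.5 TPM, and Psmb1 the lowest of the ring at 23.6, 20.95 and 16.1 TPM. Psmb2 (31.5 ± 4.89 TPM) and Psmb3 (23.1 ± 2.26 TPM) lay between them. The range of Psmb1 overlapped with those of Psmb3 and Psmb7, but within each of the 3 libraries Psmb1 was below both, and only the order of Psmb3 and Psmb7 changed between libraries.

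The alpha ring, which forms the gate of the barrel, fell into 5 genes near 30 TPM and 2 lower ones. Psma7 was highest at 37.9, 35.2 and 30.7 TPM, followed by Psma3 (30.9 ± 3.65), Psma1 (30.2 ± 2.42), Psma4 (29.7 ± 3.53) and Psma6 (28.0 ± 2.99), all means ± SD over 3 libraries, with ranges that overlapped. Psma5 was at 21.6, 17.98 and 15.6 TPM. Psma2 was the lowest at 16.5, 14.6 and 12.4 TPM. The highest value of Psma5 and of Psma2 lay below the lowest value of each of the other 5 alpha genes.

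Psma8, which replaces Psma7 in the testis, was at 0.53, 0.54 and 0.34 TPM, with 28, 106 and 35 estimated counts. Psma7 was 75.7 ± 13.1 times as high (SD, n = 3). The coding sequences of their main transcripts were 74.3% identical in an end-to-end alignment, and Psma7 had no stretch of 50 bases in common with any other gene. Psmb11 had 0 counts in each library in the gene table, which allows up to 3 counts, or 0.110, 0.0368 and 0.0808 CPM (counts scaled to library size) in replicates 1, 2 and 3. The spermatid genes Prm1 and Prm2 and the thymic gene Foxn1 were also listed at 0 there in the 3 libraries. In the second transcript table Psmb11 was listed at 0.01415, 0.009182 and 0.01355 TPM.

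In the base of the regulatory particle the 6 ATPase genes spanned a 13.7 to 31.4 TPM range of means. Psmc3 was highest at 33.7, 32.9 and 27.5 TPM, and Psmc6 lowest at 15.5, 13.5 and 12.2 TPM. Psmc1 (25.3 ± 2.09), Psmc5 (21.3 ± 1.82), Psmc4 (17.9 ± 2.04) and Psmc2 (16.3 ± 1.97 TPM) lay between; ranges of neighbours in this order overlapped, except for those of Psmc1 and Psmc5, but the order of the 6 ATPase genes was the same in each library. The base also holds scaffold and ubiquitin-binding subunits. Psmd2, a scaffold of the base, was highest of these at 43.96, 37.5 and 34.99 TPM, above each ATPase in every library. Psmd4, a ubiquitin receptor, was at 26.6, 24.9 and 21.1 TPM, and the other scaffold Psmd1 at 22.6, 21.2 and 22.1 TPM. Adrm1, another ubiquitin receptor of the base, was at 15.6, 15.4 and 13.6 TPM.

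Among the 8 lid genes matched by the rule, Psmd8 stood far above the others. Means of the other matched lid genes ran from 11.15 to 18.49 TPM. Those of the base genes ran more widely, from 13.73 to 38.8 TPM. Psmd8 (chr7:29174188-29180701, minus strand), a structural lid subunit, was at 92.99, 92.95 and 73.9 TPM. Psmd14, the deubiquitinase of the lid, was at 19.8, 18.02 and 17.6 TPM and was the second highest of the 8 lid genes matched by the rule. Sem1, a proteasome component that the rule did not match, was at 31.55, 29.92 and 22.97 TPM, above Psmd14 in each library. Psmd8 was 4.68 ± 0.48 times Psmd14 within a library, and 4.52 ± 0.51 times in the second table (SD, n = 3). Psmd6 (17.7 ± 1.67), Psmd13 (17.1 ± 2.05), Psmd7 (15.4 ± 1.99), Psmd3 (12.96 ± 1.60) and Psmd11 (11.99 ± 0.97 TPM) followed. Psmd12 was lowest at 12.5, 10.9 and 10.1 TPM, with a range that overlapped those of Psmd11 and Psmd3 but a level below both in each library.

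Psmb6 and Psmd8 thus carried the highest level of each particle. The SD of log2(TPM + 0.1) over the 14 widely expressed core genes was 0.62, averaged over libraries, and 0.38 without Psmb6. Over the 17 regulatory genes it was 0.72, and 0.49 without Psmd8. The highest core gene was 6.42 times the lowest (Psma2), and the highest regulatory gene 7.77 times the lowest (Psmd12). Within 2-fold of their particle's median lay 13 of the 14 core genes and 15 of the 17 regulatory genes.

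Core genes stood above regulatory genes in TPM. The median of the 16 core genes was 32.06, 27.07 and 24.5 TPM in replicates 1, 2 and 3, and that of the 17 regulatory genes was 19.8, 17.8 and 16.5 TPM. On the log2(TPM + 0.1) scale the difference of the medians was 0.69, 0.60 and 0.57, with a mean of 0.62 ± 0.06 (SD, n = 3), or 1.54-fold. It was positive in 3 of 3 libraries; an exact two-sided sign-flip permutation test over the 3 libraries gave p = 0.25, the smallest that 3 libraries allow. The difference was 0.68 without Psma8 and Psmb11 and pointed the other way in a mean over the 16 core genes (-0.39); the mean over the 14 core genes other than Psma8 and Psmb11 gave 0.47.

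The difference held for TPM, which are per length, and not for counts of fragments. Regulatory genes had the longer main transcripts, with a median of 1636 bases against 1101 for the core genes. Their median estimated counts were 1414, 4287 and 1797, and those of the 16 core genes 1278, 3811 and 1668. In counts the difference of medians was therefore -0.14 on the log2 scale. The summed rescaled TPM of the 14 widely expressed core genes was 1968, 1995 and 1965, and that of the 17 regulatory genes 1760, 1847 and 1832.

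**Figure D2:**
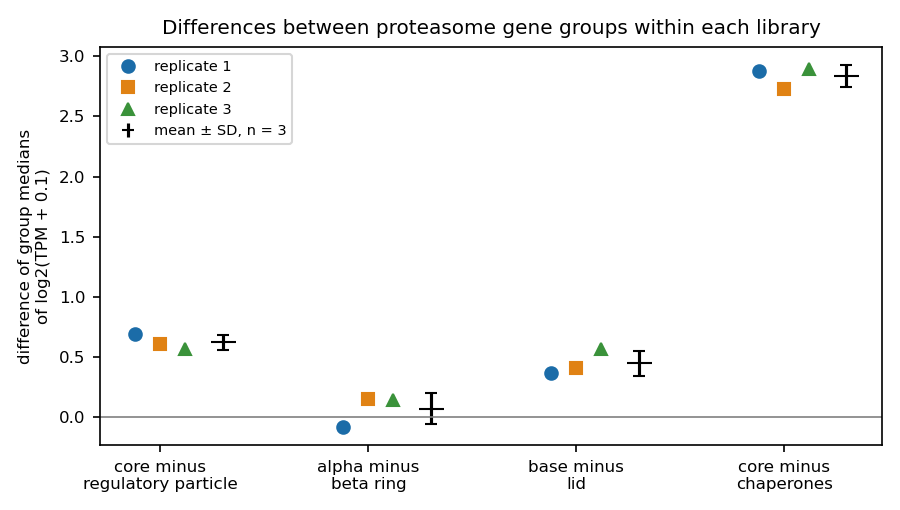
Difference of the group medians of log2(TPM + 0.1) within each library (coloured symbols) and its mean ± SD over the 3 libraries (black). Core minus regulatory particle, base minus lid and core minus chaperones are above 0 in each library, with means of 0.62, 0.45 and 2.84, and alpha minus beta ring lies on both sides of 0.

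Within the core the order of the alpha and beta medians changed between libraries: alpha minus beta was -0.08, 0.15 and 0.14 (mean 0.07 ± 0.13, exact sign-flip permutation p = 0.5). Taken as a mean over members it was -0.29, and -0.03 without Psmb6. Within the regulatory particle the base median exceeded the lid median in 3 of 3 libraries, by 0.36, 0.41 and 0.57 (mean 0.45 ± 0.11, 1.36-fold, exact sign-flip permutation p = 0.25, the smallest possible).

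The chaperones that assemble the complex were low. Psmg1 to Psmg4 form pairs that build the alpha ring, and Psmd5, Psmd9 and Psmd10 escort the base. Psmg4 was highest at 12.6, 10.6 and 8.37 TPM. The lowest were Psmd5, at 3.43, 2.70 and 2.80 TPM, and Psmg1, at 3.24, 3.23 and 2.59 TPM. Psmg2 (3.57 ± 0.53), Psmg3 (3.86 ± 0.58), Psmd9 (4.03 ± 0.38) and Psmd10 (6.48 ± 0.97 TPM) lay between them. The core median exceeded the chaperone median by 2.88, 2.73 and 2.90 on the log2 scale, a mean of 2.84 ± 0.09 (SD, n = 3), or 7.13-fold (exact sign-flip permutation p = 0.25). Pomp, the core maturation factor that carries no Psm symbol, was not low: it was at 46.9, 43.1 and 38.2 TPM.

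Among the activators, which open the barrel without ATP, Psme1 and Psme2 were far above the rest. They encode the subunits of a ring-shaped activator that interferon-gamma induces. Psme2 (chr14:55587441-55591113, minus strand) was at 82.7, 64.1 and 46.7 TPM, and Psme1 (chr14:55578123-55581529, plus strand) at 60.5, 49.9 and 36.5 TPM. The ratio of Psme1 to Psme2 was steady in the gene table, at 0.73, 0.78 and 0.78. In the second table it was higher, at 0.83, 0.97 and 0.93. Psme3, which encodes a nuclear activator of the same family, was at 16.3, 14.8 and 13.9 TPM. Psme4, a large single-chain activator, was lowest at 12, 9.07 and 9.47 TPM. Psmf1, an inhibitor of the core particle, was at 4.73, 4.46 and 3.47 TPM, below every activator in each library.

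The fifth activator gene, Psme2b, is a near copy of Psme2 on another chromosome (chr11:48945354-48946190, minus strand, a single exon), and its reads are hard to tell from those of Psme2. Both coding sequences were 717 bases long and differed at 5 positions, C312T, A369G, C489T, C519T and C543T, with the Psme2 base first and positions counted from 1 at the A of the start codon. The stretch below, coding positions 454 to 543, is shown because it holds 3 of the 5 differences, in capitals, from the GENCODE M21 transcripts.
Psme2: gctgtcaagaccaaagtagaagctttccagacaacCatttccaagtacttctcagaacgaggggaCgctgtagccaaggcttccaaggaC
Psme2b: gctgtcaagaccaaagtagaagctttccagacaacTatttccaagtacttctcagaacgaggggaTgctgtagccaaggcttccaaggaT
The 3 substitutions are the only bases in this stretch by which a read can be placed. Of the 50-base windows of the main transcripts, 59.3% of those of Psme2 and 69.3% of those of Psme2b occurred in another gene. Psme2b was listed at 16.8, 13.3 and 10.1 TPM. Psme2 was 4.79 ± 0.14 times Psme2b in the gene table and 2.47 ± 0.11 times in the second table (SD, n = 3). The ratios from the 2 tables differed by more than the spread between libraries, and the level of Psme2b is uncertain. The tables also differed within Psme2, where the retained-intron transcript Psme2-207 had a mean of 8.07 TPM in the first transcript table and 0.747 TPM in the second; the part of either in the difference between the ratios was not tested. An exon of Psme2b also overlaps one of 9930111J21Rik1 on the same strand.

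Levels of most genes held steady between libraries once the coding share was taken into account. The median SD of log2 TPM between libraries was 0.17 for the 44 genes that average 1 TPM or more and 0.18 for the 9160 such coding genes. On the rescaled values it was 0.06 for the 44 genes and 0.10 for the coding genes, and the highest library was 1.09 times the lowest for the median proteasome gene and 1.14 times for the median coding gene. The medians of this ratio were 1.07 for the core, 1.07 for the regulatory particle, 1.13 for the chaperones and 1.31 for the activators. The proteasome and coding genes were not matched for level, with medians of 17.9 TPM for the 47 genes and 6.66 TPM for the coding genes. The chaperones, at a median of 3.86 TPM, had a median SD of 0.096 on the rescaled values. The part of level in the spread was not tested. Psma4 was the most even, at 133.1, 134.1 and 133.4 rescaled TPM. In deposited TPM the genes with the smallest SD of log2 were Psmd1 (0.05), Psmd14 (0.09) and Psme3 (0.11), and those with the largest were Psme2 (0.41), Psme1 (0.37) and Psme2b (0.37). Psmd1 was even in deposited TPM but not in rescaled TPM, where its highest library was 1.24 times its lowest. From the estimated counts the median coefficient of variation that edgeR fitted was 0.0783 for the core, 0.0761 for the regulatory particle, 0.121 for the chaperones and 0.110 for the activators, beside 0.0989 for coding genes.

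**Figure D3:**
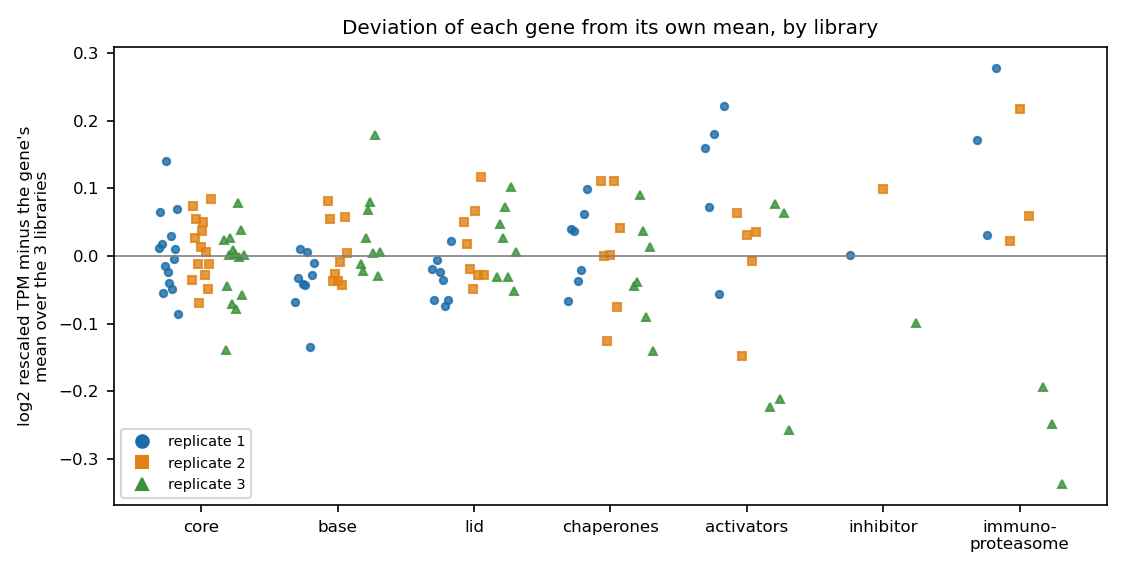
Log2 rescaled TPM of each gene minus its own mean over the 3 libraries, for the 44 genes whose mean was 1 TPM or more and the 3 immunoproteasome genes, by library. Core, base and lid genes lie close to 0 in each library; in replicate 3 Psme1, Psme2, Psme2b and the 3 immunoproteasome genes lie below every core, base and lid gene.

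Replicate 3 was low for the interferon-gamma-inducible genes of the complex, and for some other genes, but not for the summed core and regulatory particles of the constitutive proteasome. Psme2 was at 331, 291 and 238 rescaled TPM, Psme1 at 242, 227 and 186, and their sum at 573, 518 and 423, with the highest library 1.36 times the lowest. The summed core was 1.02 times as high in its highest library as in its lowest, and the summed regulatory particle 1.05 times. The immunoproteasome genes Psmb8, Psmb9 and Psmb10, measured as context, summed to 560, 513 and 410 rescaled TPM, a ratio of 1.37. Sums over many genes can hide differences of single genes. The median ratio per gene was 1.35 for Psme1 and Psme2, 1.38 for the immunoproteasome, and 1.07 for the core and for the regulatory particle. Other genes were also lowest in replicate 3: Nfe2l2 (highest library 1.32 times the lowest), Ubb (1.24) and Psmg4 (1.18). Nfe2l1 and Vcp (1.16 each) were highest there. Of the 44 proteasome genes, 10, 17 and 17 were highest in replicates 1, 2 and 3, beside 30.4%, 31.4% and 38.2% of coding genes. The immunoproteasome genes had a median of 50.2% of their TPM in transcripts annotated as protein_coding, beside 99.6% for the beta ring. Ratios between them are therefore of whole genes and not of coding transcripts. Relative to its constitutive counterpart, Psmb10 was 2.33, 1.95 and 1.49 times Psmb7, Psmb8 was 1.81, 1.89 and 1.63 times Psmb5, and Psmb9 was 0.19, 0.20 and 0.15 times Psmb6. All 3 ratios were lowest in replicate 3, the library in which Malat1 was also highest; its part in these differences was not tested, and with 1 condition no test between groups exists.

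Most TPM of these genes lay in transcripts annotated as protein_coding. The median share over the 44 genes was 98.8%, beside 97.6% for coding genes, and 40 of the 44 genes had 90% or more. Psma3 had the lowest share, at 42.3%, 53.6% and 46.1% in replicates 1, 2 and 3 (mean 47.3 ± 5.74%). Its retained-intron transcript Psma3-203 was at 10.2, 8.11 and 9.30 TPM beside the coding Psma3-204 at 13.2, 14.6 and 11.7 TPM, and transcripts marked for nonsense-mediated decay, a pathway that removes messages with an early stop, took 22.4%. The second table gave a protein_coding share of 34.0% for Psma3. Of the 50-base windows of Psma3-204, 78.5% also occurred in other genes, chiefly the copy Gm13835, which was listed at 0.47, 0.50 and 0.44 TPM.

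Psmd13 had 61.6%, 62.6% and 72.3% of its TPM in protein_coding transcripts, with 29.9% in transcripts marked for nonsense-mediated decay, chiefly Psmd13-211. Psmb6 had 81.3%, 85.03% and 82.5%, with the rest in retained-intron transcripts, so that its protein_coding transcript Psmb6-201 alone stood at 82.1, 81.6 and 68.2 TPM. That was still above the whole gene level of every other core gene in each library. Psme2 had 88.3%, 78.1% and 82.9%, but 93.4% on average in the second table. Psmd1 was the fifth at 90.1%, 91.5% and 89.2%. This order holds for the first transcript table: in the second, Psmc6 was among the low genes, with a mean share of 74.6% beside 94.5% in the first, below Psmb6 (84.4%) and above Psmd13 (65.5%). Among the 3 genes below 1 TPM, the shares of Psmc3ip (44.3%) and Psma8 (78.7%) rest on few counts.

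**Figure D4:**
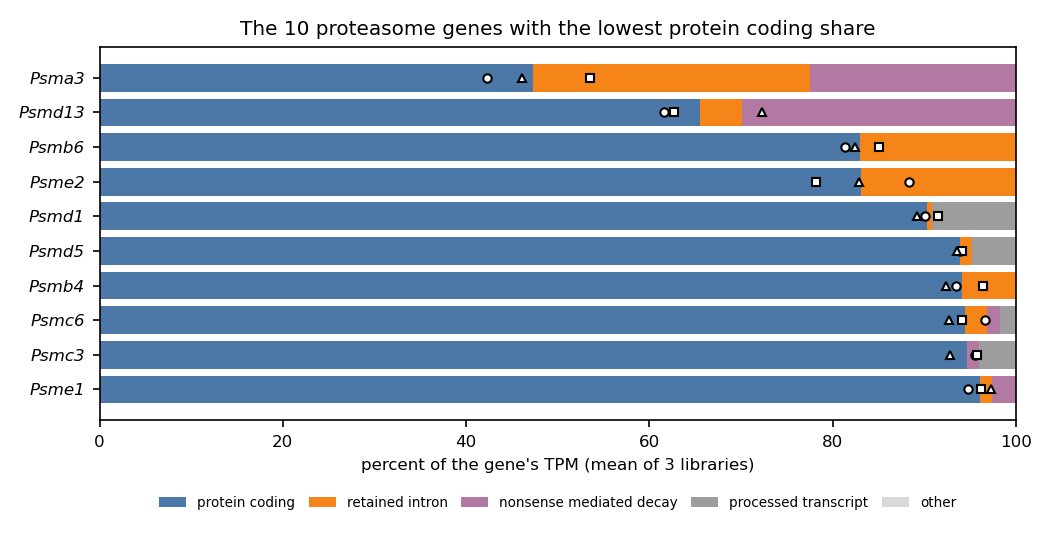
Percent of each gene's TPM by transcript annotation (bars, mean of 3 libraries) for the 10 genes of at least 1 TPM with the lowest protein_coding share; the open symbols are the protein_coding share in replicate 1 (circle), 2 (square) and 3 (triangle). Psma3 and Psmd13 stand apart at 47.3% and 65.5%, and Psmb6 and Psme2 lie near 83%.

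Some of the genes share sequence with other genes. With 50-base windows, 26 of the 47 main transcripts had no window in common with another gene, 21 had at least 1 and 9 had more than 20%: Psma3, Psme2b, Psme2, Psmb5 (57.1%), Psmb3 (55.8%), Psma5 (54.5%), Psmd2 (26.4%), Psma4 (25.6%) and Psmg3 (22.7%). Apart from the Psme2 and Psme2b pair, the other gene with the most windows in common was listed at no more than 0.50 TPM for each of these. Exons of 13 of the 47 genes overlap exons of another gene, most on the opposite strand. No source used here says whether the counting used strand, and reads from such partners cannot be told apart without it.

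The promoters of the genes were read for 4 short motifs on both strands, in the window from 250 bases before to 50 after the RefSeq start (build GRCm38.p6), which the table held for 39 of the 47 genes, as 42 promoters. TGANNNNGC is the core of the antioxidant response element that Nfe2l1 and Nfe2l2 recognise, and Nfe2l1 is the factor known for restoring proteasome genes when the protease is blocked. It was found in 57.1% of the 42 promoters, in 9 of 12 core promoters (75.0%) and in 6 of 15 regulatory promoters (40.0%), beside 41.7% of all coding promoters and 41.3% of all promoters in the table. CCAAT, the letters bound by NF-Y, was in 33.3% beside 38.2% of coding and 37.4% of all promoters, and GGGCGG, a letter string bound by Sp1, in 54.8% beside 46.2% and 35.7%. CCGGAA, the core of sites bound by ETS factors, was in 22 of the 42 promoters (52.4%), in 4 of 12 core promoters (33.3%) and in 11 of 15 regulatory promoters (73.3%), beside 18.7% of coding and 14.9% of all promoters. These shares are descriptions of letters with no test, and the motifs overlap in places.

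The stretches around CCGGAA are shown because of the 4 motifs this had the largest gap between these genes and coding promoters. Each is written 5′ to 3′ on the strand of the gene, from RefSeq build GRCm38.p6, with the match in capitals (TTCCGG where it lies on the other strand) and 10 bases on each side. They are a match from each of the 10 regulatory genes that hold the motif and from 2 of the 4 core genes.
Psmc1, chr12:100110165-100110190, plus strand: gtggatgcacTTCCGGcggtggcgat
Psmc2, chr5:21785182-21785207, plus strand: cagtgagcacTTCCGGgatggggctc
Psmc5, chr11:106256080-106256105, plus strand: gcccattgacCCGGAActgttctcgg
Psmc6, chr14:45329714-45329739, plus strand: ggcgggccagCCGGAAggggcggagc
Psmd2, chr16:20651560-20651585, plus strand: gggctggaagCCGGAAcagtaattcc
Psmd4, chr3:95042724-95042749, minus strand: tacagctgttCCGGAAgctgctgcga
Psmd6, chr14:14120975-14121000, minus strand: agagacgcgaCCGGAAgtcagactgg
Psmd11, chr11:80428595-80428620, plus strand: agggcgggtcTTCCGGgtgtgtgttt
Psmd12, chr11:107479502-107479527, plus strand: agcgggcgacTTCCGGtgcgagtgac
Psmd13, chr7:140882378-140882403, plus strand: gcccgcggtgCCGGAAgtgagcgagc
Psma2, chr13:14613253-14613278, plus strand: tgttccgactTTCCGGgtaaagatgg
Psmb4, chr3:94886940-94886965, minus strand: ccacttccgtTTCCGGtgacgctagc
Both orientations occur in the base and in the lid. Within 50 bases of the start lay 18 of the 34 matches in these genes (52.9%), beside 51.0% of the matches in all coding promoters.

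The gene with the highest level in each particle had no CCGGAA in the bases before its start. Most core promoters lacked the motif, which was in 4 of 12, as did those of Psmc4, Psmd1 and Psmd14. A link between the motif and the level was not tested. The upstream bases of Psmb6 and Psmd8 are shown for comparison, with matches to the other motifs in capitals and bases inside the annotated gene left out.
Psmb6, chr11:70525107-70525356, plus strand: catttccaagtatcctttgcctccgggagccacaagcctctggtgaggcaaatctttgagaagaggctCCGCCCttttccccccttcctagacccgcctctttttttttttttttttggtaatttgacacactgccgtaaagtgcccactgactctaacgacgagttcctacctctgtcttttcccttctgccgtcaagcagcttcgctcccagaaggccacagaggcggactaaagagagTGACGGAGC
Psmd8, chr7:29180702-29180923, minus strand: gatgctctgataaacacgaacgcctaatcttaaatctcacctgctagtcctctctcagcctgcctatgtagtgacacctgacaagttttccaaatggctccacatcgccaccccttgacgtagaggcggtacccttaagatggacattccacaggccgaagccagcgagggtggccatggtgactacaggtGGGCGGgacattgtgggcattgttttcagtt
The capitals in Psmb6 are 1 match to GGGCGG, on the other strand, and 1 to TGANNNNGC at the end of the stretch. Psmd8 held 1 match to GGGCGG and none to the other 3 motifs in this stretch. Its full promoter window, from which the shares above were taken, did hold TGANNNNGC.

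Genes around the proteasome were present at like levels. All 10 measured genes of the list of other proteasome components reached 1 TPM in each library, with a median of 12.2 TPM. So did all 6 genes of the list on control of proteasome transcription, of which Nfe2l2 was highest at 95.8, 72.6 and 57.3 TPM and Nfe2l1 was at 26.6, 25.4 and 24.4 TPM. The median of the 17 regulatory genes was 17.9 TPM and that of the 16 core genes 28.2 TPM on the same scale of means.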

How the data were processed

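The authors deposited, for each of the 3 libraries, a gene table and a transcript table with expected (estimated) counts, TPM and FPKM, derived from transcriptome alignments, and a second transcript table of TPM derived directly from the reads, on mm10 with GENCODE M21, per the notes deposited with the libraries. No source used here names the aligner, the counting tools, their versions or the strandedness. Columns were joined by gene identifier, and symbols and transcript annotations came from the second table's identifiers.

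Levels were the deposited TPM, taken as log2(TPM + 0.1). Group differences were differences of medians within a library, tested with an exact two-sided sign-flip permutation test over libraries. The test takes libraries as its units and does not measure the spread between genes. Genes whose mean was 1 TPM or more entered the values on spread and on transcript annotation. Deposited expected counts, rounded to whole numbers, gave coefficients of variation with edgeR 4.0.16 (R 4.3.3, intercept only, genes kept at a minimum count of 10); single-gene values are shrunken toward each other and are not given. DESeq2 1.42.0 size factors and the authors' FPKM were alternatives. Scripts were tested on simulated data. Tables were handled with pandas 2.3.3. With 1 condition no test between groups was made. A limit of 3 counts was used for a count of 0 and covers counting error only.

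The 47 members and the 8 context lists (54 symbols, 52 measured; Paaf1 was not analysed here and AI314180 is the older symbol of Ecpas) were chosen with earlier results of these data known. Every member was named in its role. Library values were given for the highest and lowest of each role, the protease subunits, Psmd14, the activators, the inhibitor, the low genes, and those with the most and least spread or the lowest protein_coding share. Of the context lists, those for macrophages, other cells, testis or thymus, nuclear RNAs (Malat1 and Neat1), the immunoproteasome, other components and transcription control were used; the remaining list is not reported here. Protein sequences were not used here.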

Additional observations from a re-analysis of the deposited data

How the results depend on the processing

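Of 103 comparisons of a result with an alternative setting, 86 kept their direction or stayed close to the value given, 13 moved and 4 reversed. What counted as close differed between results, so these counts are not a uniform measure. A regulatory spread of 0.69 beside 0.72 was counted as moved. Median SDs between libraries of 0.12 without replicate 1 and 0.23 without replicate 2, beside 0.17, were counted as close. The core minus regulatory difference reversed to -0.39 as a mean over members and to -0.14 in estimated counts, a setting added after seeing the data, and kept its sign in the other 12 of 14 settings. The alpha minus beta difference reversed to -0.29 as a mean and to -0.026 as a mean without Psmb6 (added after seeing the data). Base minus lid (0.28 to 0.49) and core minus chaperones (1.78 to 2.90) kept their sign in all settings run. The median SD between libraries, 0.17 in TPM, was 0.092 in FPKM, 0.33 in the second table, 0.062 in rescaled TPM, 0.079 with TMM-normalised CPM and 0.069 with DESeq2 size factors. The median level, 17.9 TPM, was 35.6 in FPKM, 6.93 in the second table and 80.6 in rescaled TPM. The spread over core genes moved to 0.38 without Psmb6. The spread over regulatory genes moved to 0.69 with a pseudocount of 1, to 0.69 in the second table and to 0.49 without Psmd8 (leaving out Psmb6 or Psmd8 was added after seeing the data). The median protein_coding share ranged from 98.8% to 99.4% with 1 library left out. No paired analysis was possible because the libraries form 1 group. With 3 libraries the sign-flip test cannot give a p below 0.25, and values of Psma8, Psmc3ip and Psmb11 are limited by their counts.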
